A study of Mus musculus with 4 samples.

Results

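The nuclear genes of oxidative phosphorylation were followed through 4 single-cell RNA libraries of mouse gingiva, the gum tissue around the teeth. Members were the rows of the count matrices whose gene symbol names a subunit of the 5 respiratory complexes: the Nduf, Sdh, Uqcr, Cox4 to Cox8 and Atp5 families. Of 31253 genes, 87 carried such a symbol, and 84 of these had at least 50 unique molecular identifiers (UMIs, counted RNA molecules) over the 4 matrices. Complex I had 36 of these members, complex II 4, complex III 8, complex IV 18 and complex V 18. The rule itself uses the symbol and the UMI total over all 4 matrices, and no difference between groups.

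Mitochondria make most of a resting cell's ATP by passing electrons from NADH (complex I) or succinate (complex II) through complex III to oxygen at complex IV, and by letting the protons pumped on the way flow back through ATP synthase (complex V). Complex II is encoded wholly in the nucleus, whereas the other complexes join nuclear subunits to a few subunits that the mitochondrial genome encodes, so each enzyme needs transcripts from both genomes. The nuclear subunits are transcribed in most cell types, and their promoters are known for binding sites of NRF1, of the ETS factor GABP and of YY1.

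RefSeq promoters of build GRCm38.p6, reaching from 250 bases before to 50 bases after a gene start, were matched by symbol for 67 of the 84 members, which gave 72 promoters. Both strands were searched for the letters GCGCATGCG (NRF1), AAGATGGCG (YY1) and CCGGAAGT (an ETS site). The NRF1 letters were in 11.1% of the members' promoters and in 1.75% of all 32851 promoters of the same length. For the YY1 letters the shares were 9.72% and 1.4%, and for the ETS letters 6.94% and 3.89%. At least 1 of the 3 motifs was in 26.4% of the members' promoters, from 19 genes, and in 6.69% of all promoters. A match is a description of letters and not a shown binding site. The 4 promoters below are printed 5′ to 3′ on the gene's strand because they carry these letters in genes described further on, chosen after their values were seen: Uqcr11 and Cox6a1, which were lower in the diseased libraries, Atp5j, which was higher there, and Atp5g2, which was higher in mutant phagocytes. Capitals mark the matched letters, with overlapping matches on both strands drawn as one stretch.
Uqcr11, chr10:80406772-80407071, minus strand, ETS letters starting 66 bases before the gene start and NRF1 letters on the other strand 5 bases before it: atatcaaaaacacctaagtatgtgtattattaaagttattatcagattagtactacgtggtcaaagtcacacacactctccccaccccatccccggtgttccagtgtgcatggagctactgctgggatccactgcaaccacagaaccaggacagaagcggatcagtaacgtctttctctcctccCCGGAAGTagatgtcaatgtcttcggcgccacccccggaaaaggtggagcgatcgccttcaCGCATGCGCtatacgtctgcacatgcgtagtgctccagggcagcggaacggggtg
Cox6a1, chr5:115348909-115349208, minus strand, NRF1 letters on both strands starting 162 bases before the gene start: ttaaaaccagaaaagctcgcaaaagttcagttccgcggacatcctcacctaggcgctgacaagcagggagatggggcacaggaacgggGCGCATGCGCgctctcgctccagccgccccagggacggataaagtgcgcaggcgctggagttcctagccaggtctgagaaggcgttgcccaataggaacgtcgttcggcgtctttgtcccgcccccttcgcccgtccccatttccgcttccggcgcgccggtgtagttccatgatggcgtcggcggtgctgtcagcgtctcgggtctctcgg
Atp5j, chr16:84834927-84835226, minus strand, the second of its 2 listed promoters, YY1 letters starting 88 bases before the gene start: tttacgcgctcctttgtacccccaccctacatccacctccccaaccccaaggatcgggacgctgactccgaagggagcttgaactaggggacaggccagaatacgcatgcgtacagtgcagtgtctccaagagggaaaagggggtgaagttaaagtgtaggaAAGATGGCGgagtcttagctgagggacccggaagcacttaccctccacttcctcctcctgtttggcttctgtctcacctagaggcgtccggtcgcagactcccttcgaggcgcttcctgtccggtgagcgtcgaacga
Atp5g2, chr15:102670998-102671297, minus strand, NRF1 letters on both strands starting 42 bases before the gene start: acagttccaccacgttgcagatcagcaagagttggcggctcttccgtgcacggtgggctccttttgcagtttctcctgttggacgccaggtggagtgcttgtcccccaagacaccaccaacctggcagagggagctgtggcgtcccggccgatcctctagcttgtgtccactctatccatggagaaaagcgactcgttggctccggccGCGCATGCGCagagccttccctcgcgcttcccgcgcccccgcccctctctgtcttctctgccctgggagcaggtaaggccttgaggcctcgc

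The samples were transgenic mice with the genotypes labelled Itga9-Lyz2-cHet and Itga9-Lyz2-cKO, each with a control library and a library labelled PD. In the PD libraries, gingiva was collected 14 days after the upper second molar had been ligated with silk and Porphyromonas gingivalis had been applied, a model of periodontitis. Itga9 encodes the integrin α9 chain, and Lyz2 is a gene of myeloid cells. Every group was 1 library, the number of animals behind it is not given in the sources used here, and both genotypes carry the Itga9-Lyz2 modification in some form, so there is no unmodified group. Without replicates there is no test: a fold is given with a 95% interval that covers counting error only. A gene was called higher or lower by size, at 1.5-fold or more with 10 CPM (UMIs per 1000000 of the cell type and library) added to both sides, with 50 UMIs in at least 1 of the 2 libraries and an interval that excluded 1. The added 10 CPM keeps genes far below that level in both libraries from being called. Shares of all genes called include such genes where a gate holds many UMIs. Most members stand higher, so these shares are not matched to them in level.

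The libraries held 6684 to 9331 cell barcodes and 21368197 to 62914870 UMIs, and between 65 and 116 barcodes were shared by any pair of libraries. The 2 PD libraries were the shallower ones, and their cells reached down to 500 UMIs while the control matrices began at a higher total. The members made up 1.22% to 1.37% of the UMIs of each library. Mitochondrially encoded (mt-) transcripts made up 10.7% in cHet control, 5.94% in cHet PD, 13.7% in cKO control and 6.62% in cKO PD. Both treated libraries therefore differed from both controls in depth, lowest UMI total and mt- share, and these differences and the treatment cannot be told apart. Cells with 200 genes and at most 20% mt- UMIs were assigned to cell types by markers, with 3 of 8 markers and a lead of 2 over any other of 17 classes. Epithelial cells were by far the most numerous, with 7130, 5907, 6496 and 4022 cells in cHet control, cHet PD, cKO control and cKO PD. Itga9 in phagocytes, a myeloid cell type, stood at 116, 94.3, 42.1 and 15.6 CPM in the same order, on 29, 92, 16 and 7 UMIs. Neutrophils, which are also myeloid, held 1, 0, 0 and 1 Itga9 UMIs. Because 3′ tags can lie outside a deleted part, these Itga9 values do not check the labels.

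The 3 members with the most UMIs over the 4 matrices were, for complex I, Ndufa1 (46654 UMIs), Ndufb1-ps (38198) and Ndufa12 (36413). Ndufb1-ps is annotated as a bidirectional-promoter non-coding RNA, the only member of the 84 not annotated as protein coding. For complex II they were Sdha (17238), the flavoprotein that oxidises succinate, and the membrane anchors Sdhd (16918) and Sdhc (15972). Uqcrh (76632), Uqcrb (43038) and the core protein Uqcrc2 (33450) led complex III. Cox6c (83223), Cox7c (67144) and Ndufa4 (57969) led complex IV, of which Ndufa4 is now counted as a subunit despite its complex I name. Complex V was led by Atp5a1 (108909), the α subunit of the catalytic head, and by Atp5g2 (103472) and Atp5g3 (85906), which encode identical membrane rotor subunits after import. The UMIs come from transcript 3′ ends and are not divided by length, so the comparisons here set 1 gene or sum against itself across cells and not gene against gene.

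Keratinocytes and gland-like epithelium carried the most nuclear respiratory-chain RNA per UMI, fibroblasts and endothelial cells clearly less, and chondrocytes and neutrophils were among the lowest. Summed over the 84 members, the epithelial gate stood at 13929 CPM in cHet control (95% interval 13896 to 13962), 13502 in cHet PD, 14057 in cKO control and 14169 in cKO PD. The glandular epithelial gate stood at 15815 CPM in cHet control, 14538 in cKO control and 12884 in cKO PD, with under 20 cells in cHet PD. Mural cells, the contractile cells around vessels, ranged from 9435 to 12718 CPM. Endothelial cells ranged from 7042 to 8580 CPM and fibroblasts from 6971 to 7914 CPM over the 4 libraries, and these ranges overlapped each other. Chondrocytes, with enough cells in 2 libraries, had 5502 and 5582 CPM. Neutrophils had 6290 CPM on 33 cells in cHet control, 3222 on 657 in cHet PD, 4128 on 22 in cKO control and 5919 on 730 in cKO PD. Phagocytes had 7592 CPM on 35 cells, 7039 on 198, 6293 on 55 and 11611 on 106 in the same order. The cKO PD value of the phagocytes stood above the highest of the other 3 libraries by more than their whole range.

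**Figure D1:**
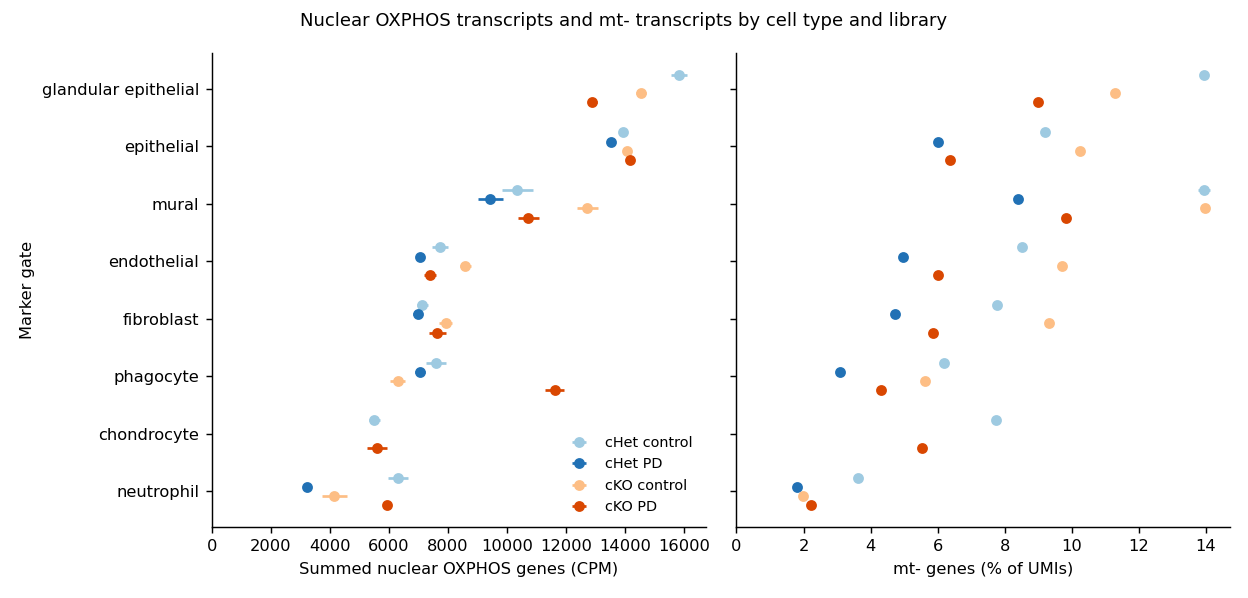
Summed CPM of the 84 nuclear members (left) and percent of UMIs from mt- genes (right), by marker gate (vertical axis) and library (colours), with bars for 95% counting intervals, for gates with at least 20 cells. On the left, epithelial gates lie highest and neutrophils of cHet PD lowest, at 3222 CPM, phagocytes of cKO PD at 11611 CPM lie apart from the other phagocytes, and on the right both PD libraries lie below the control of the same genotype in every gate plotted for both, except neutrophils of cKO.

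Most members were lower in endothelial cells and neutrophils than in epithelium. In cHet control, 53 of 80 members considered were at least 1.5-fold lower in endothelial than in epithelial cells and 1 was higher, where 16.1% of all genes were called lower. In cHet PD the endothelial count was 54 lower and 0 higher of 78 (20.9% of all genes lower). Neutrophils of cHet PD had 70 of 78 members lower than epithelium, with a median log2 difference of -1.67, but also 40.8% of all genes lower. The glandular gate had no common direction: 16 members were higher and 6 lower of 80 in cHet control (14.6% and 26.3% of all genes), 8 and 6 of 79 in cKO control (13.5% and 23.8%) and 3 and 12 of 78 in cKO PD (17.2% and 30.5%). All cell types of a library share that library, so these are descriptions within it.

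Between basal and suprabasal epithelium the summed level moved little, while single members did. The suprabasal-to-basal ratio of the sum was 1.00 in cHet control, 1.07 in cHet PD, 1.06 in cKO control and 1.06 in cKO PD. Cells with junctional-epithelium markers stood lower, at 10849, 11800, 12246 and 11392 CPM in the same order, on 29, 685, 85 and 620 cells. Basal cells ranged from 13425 to 14293 CPM. Ndufa4l2, a relative of Ndufa4 known as a target of hypoxia-inducible factors, had the largest suprabasal excess in all 4 libraries, with log2 differences of 1.36, 0.99, 1.44 and 1.89. Sdhd, a membrane anchor of complex II, had the lowest value in all 4, at -0.92, -0.75, -0.81 and -0.59. In all, 3, 2, 5 and 3 members were called higher and 2, 1, 3 and 1 lower in suprabasal cells, of 79, 77, 78 and 76 considered. The background was 7.67%, 5.68%, 6.08% and 6.01% of all genes higher and 12.5%, 17%, 13.9% and 21.2% lower. Cells with 3 or more of 8 cycling markers had a sum 1.06 to 1.07 times that of the other epithelial cells in each library.

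The first question of the design was what periodontitis changed. In epithelial cells the sum of the members was nearly level between PD and control, but the complexes moved apart. The summed complex I subunit RNA was lower in PD, the complex II and complex V sums higher, and those of complexes III and IV close to level. The PD-to-control ratio of the whole sum was 0.969 (0.966 to 0.973) in cHet, a log2 ratio of -0.04, and 1.01, a log2 ratio of 0.01, in cKO. These 2 signs depend on scaling: with TMM factors the log2 ratios were 0.09 and 0.04, and with mt- UMIs left out of the total -0.09 and -0.05. In cHet, 10 members were called higher and 27 lower of 80, where 11% of all genes were called higher and 11.5% lower. In cKO, 9 were higher and 19 lower of 79, where 6.74% and 8.33% of all genes were. The median log2 change of the members was -0.22 in cHet and -0.10 in cKO, beside -0.06 and -0.04 for all genes considered.

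Complex I summed to 3743 CPM in cHet control and 2660 in cHet PD, a ratio of 0.711 (0.705 to 0.717), and to 3785 and 3071 CPM in cKO, a ratio of 0.811 (0.802 to 0.82). Of its 36 members, 24 had a log2 change below 0 in both genotypes and 8 above 0 in both. In cHet 17 were called lower and 0 higher, and in cKO 12 lower and 1 higher. Complex II summed to 267 and 363 CPM in cHet (ratio 1.36) and to 290 and 403 CPM in cKO (ratio 1.39). Complex III had ratios of 0.979 and 1.03, complex IV of 0.94 and 0.973. Complex V went from 4902 to 5707 CPM in cHet, a ratio of 1.16 (1.16 to 1.17), and from 5002 to 5768 CPM in cKO, a ratio of 1.15 (1.14 to 1.16), with 5 members called higher and 1 lower in cHet and 3 and 0 in cKO, of 17. Of these 17 members, 7 lay below 0 in both genotypes and 8 above 0 in both, with median log2 changes of -0.08 and 0.06, so the complex V members did not move as 1 group. The pattern was also seen within layers: the complex I ratio was 0.714 and 0.837 in basal cells and 0.768 and 0.843 in suprabasal cells (cHet and cKO), and the complex V ratio was 1.15 and 1.2 in basal cells and above 1 in suprabasal cells of both.

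**Figure D2:**
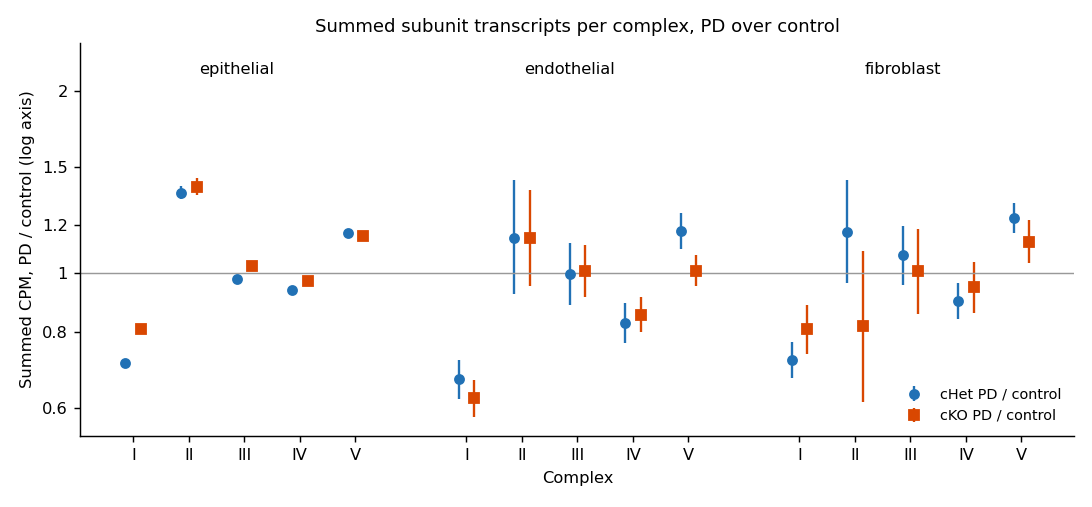
Ratio of summed CPM, PD to control, on a log axis, for the members of each complex in epithelial, endothelial and fibroblast gates, with circles for cHet, squares for cKO and bars for 95% counting intervals. Complex I lies below 1 in all 3 gates and both genotypes, from 0.622 to 0.811, while complex V lies at or above 1.

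The lowest PD values gathered in complex I, with complex III and IV genes among them. Ndufa7, an accessory subunit of complex I (chr17:33824572-33838317, plus strand, GRCm38), stood at 170 CPM in cHet control, 28.5 in cHet PD, 164 in cKO control and 30.9 in cKO PD. The 2 PD libraries were alike and lay far below the 2 alike controls, with log2 changes of -2.22 and -2.09. Ndufs5 (chr4:123712710-123718202, minus strand), an intermembrane-space subunit of complex I, stood at 87.2, 12.3, 82.8 and 13.8 CPM in the same order. Ndufb7, another intermembrane-space subunit, stood at 38.5, 5.82, 40.3 and 7.02 CPM, and Ndufv3, a small subunit of the NADH-oxidising module, at 106, 24, 92.2 and 31.4 CPM. Both genes were called lower in both genotypes. The most abundant member of complex I, Ndufa1, went from 296 to 187 CPM in cHet and from 297 to 208 in cKO, and Ndufa12 was called lower in both. Ndufb1-ps went the other way, from 191 to 274 and from 189 to 327 CPM, and was called higher in cKO.

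Complex III held the member with the lowest PD ratio of all and some of those with the highest. Uqcr11 (chr10:80402997-80406830, minus strand), a small subunit of complex III whose promoter is printed above, stood at 179 CPM in cHet control, 24.3 in cHet PD, 177 in cKO control and 22.0 in cKO PD, log2 changes of -2.46 and -2.55. The core protein gene Uqcrc1 stood at 92.1, 36.9, 98.0 and 30.3 CPM and was also called lower in both. Uqcrfs1 (chr13:30540308-30545362, minus strand), the Rieske iron-sulfur protein, went from 106 to 231 CPM in cHet and from 108 to 214 CPM in cKO. Uqcrb went from 198 to 363 and from 195 to 367 CPM, so subunits of 1 complex lay at both ends of the members' range. The 2 abundant members Uqcrh (487 and 398 CPM in cHet) and Uqcrc2 (180 and 235 CPM) were not called.

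In complex IV, Cox6a1 (chr5:115345642-115348981, minus strand) stood at 293, 87.6, 203 and 110 CPM in the same order of libraries, and was lower in PD in both genotypes. It was also the member with the lowest cKO-to-cHet ratio among the controls. Cox5a (chr9:57521274-57532426, plus strand) went from 199 to 390 CPM in cHet and from 208 to 397 CPM in cKO. The general isoforms Cox4i1 (303, 182, 318 and 200 CPM) and Cox8a (314, 174, 299 and 195 CPM) were called lower in both genotypes, while Cox6b1 (346, 307, 361 and 290 CPM), Cox6c (501, 439, 486 and 477 CPM) and Cox7c (369, 354, 411 and 421 CPM) were not called. Cox7b was 207, 297, 218 and 346 CPM and was called higher in cKO.

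In complex V, the catalytic-head subunit Atp5a1 went from 532 to 938 CPM in cHet and from 526 to 888 CPM in cKO, and Atp5b, its β partner, from 376 to 693 and from 374 to 538 CPM. Atp5a1, Atp5j and the stalk subunit Atp5pb were called higher in both genotypes, and Atp5b in cHet. The 3 rotor-ring genes did not move together. Atp5g3 went from 444 to 638 CPM in cHet and from 464 to 615 in cKO, Atp5g2 from 680 to 472 and from 744 to 536, and Atp5g1 from 177 to 106 and from 176 to 117. Atp5g2 held 52.2% of the 3 genes' UMIs in cHet control and 38.8% in cHet PD, and 53.7% and 42.3% in cKO. Of these, only the cHet change of Atp5g1 was called.

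The 4 subunits of complex II, which also serves the tricarboxylic acid cycle, did not move as 1 group either. Sdhd (chr9:50596357-50603812, minus strand) stood at 69.6 CPM in cHet control, 130 in cHet PD, 84.1 in cKO control and 164 in cKO PD and was called higher in both genotypes. Sdhc was 81.5, 118, 78.5 and 105 CPM and Sdha 78.3, 98.4, 89.1 and 109 CPM, neither called. The iron-sulfur subunit Sdhb was 37.6, 16.4, 38.7 and 25 CPM and was called lower in cHet.

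The 2 genotypes are independent pairs of libraries, and the members' changes in them were alike. Of the 10 members called higher in cHet, 7 were called higher in cKO, which is 70% of the first list and 77.8% of the second. Of the 27 called lower in cHet, 19 were called lower in cKO, 70.4% of the first list and 100% of the second, and no member was called in opposite directions. Over all genes the same shares were 48.9% and 81.3% for the higher lists and 54.6% and 77.4% for the lower ones. Over the 79 members considered in both, Pearson's r of the log2 changes was 0.96, and over 12244 genes it was 0.83, as a description across genes, which are not independent replicates. The 12244 genes include many at lower levels than most members, so the 2 values are not matched in level. The libraries of each treatment share the differences in depth and mt- share given above.

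**Figure D3:**
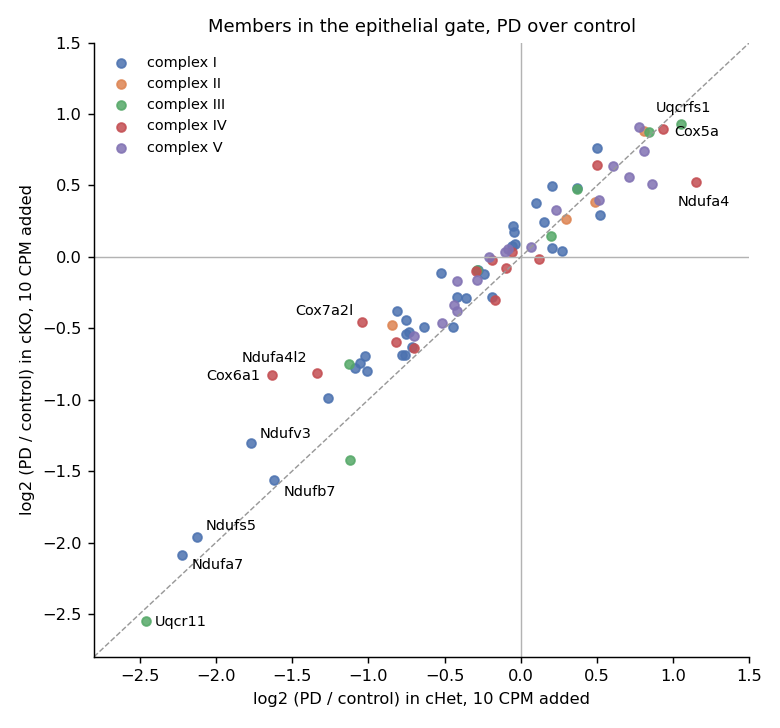
Each point is 1 member in the epithelial gate, at its log2 PD-to-control change (10 CPM added) in cHet (horizontal) and cKO (vertical), coloured by complex, with a dashed line of equality. Points run along the line from Uqcr11 (-2.46 and -2.55) to Uqcrfs1 (1.05 and 0.93), with Ndufa4, Cox6a1 and Cox7a2l farthest off it.

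Transcripts of the mitochondrial genome were lower in the PD epithelium, while the nuclear sum was nearly level, so the ratio of nuclear to mt-encoded subunit RNA was higher. The 13 mt-encoded subunit genes summed to 91918 CPM in cHet control and 60168 in cHet PD (ratio 0.655), and to 102335 and 63766 CPM in cKO (ratio 0.623). The nuclear-to-mt-encoded ratio was 0.152, 0.224, 0.137 and 0.222 in cHet control, cHet PD, cKO control and cKO PD. Of the 13, 8 were called lower in cHet and 10 in cKO, and none higher. mt-Atp8 (ratios 0.227 and 0.306) and mt-Nd4l (0.363 and 0.494) were lowest, and mt-Nd6, at 5.12 and 9.92 CPM in cHet and 4.92 and 5.98 CPM in cKO, was the only gene with ratios above 1. The share of mt- UMIs also follows the loss of cytoplasmic RNA from damaged cells, and the part of cell quality in these ratios was not tested. The cap on the mt- share removed 9.72% of barcodes in cHet control and 17.8% in cKO control. It removed 1.10% in cHet PD and 1.12% in cKO PD, so the ratios depend on a filter that acted mainly on the controls. Before this filter, over all cell types, mt- transcripts made up 10.7% of UMIs in cHet control and 5.94% in cHet PD. In cKO these shares were 13.7% and 6.62%.

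Other mitochondrial and metabolic genes in the same epithelium, from lists chosen with earlier results of these data known, gave a mixed picture. Of all genes, 11% were called higher and 11.5% lower in cHet, and 6.74% and 8.33% in cKO. Mitochondrial housekeeping genes outside the respiratory chain were 10 higher and 2 lower of 26 in cHet (summed ratio 1.52) and 9 and 1 of 26 in cKO (1.48). Tricarboxylic acid cycle genes were 3 higher and 1 lower of 18 (1.16) and 5 and 1 (1.2). Assembly factors of the respiratory complexes were 3 higher and 6 lower of 44 (0.861) and 2 and 2 (0.929), and mitochondrial ribosomal proteins 8 and 11 of 77 (0.986) and 5 and 9 (0.974). Glycolysis genes were 5 higher and 7 lower of 20 (0.989) and 6 and 4 (1.07). Cytosolic ribosomal protein genes were 2 higher and 31 lower of 80 (0.789) and 5 and 26 (0.879). Among known regulators, Hif1a, the oxygen-sensing factor, went from 121 to 424 CPM in cHet and from 152 to 562 CPM in cKO and was called higher in both. Ppargc1a, the coactivator of mitochondrial biogenesis, stood at 5.43, 1.02, 9.22 and 0.822 CPM and was called lower in cKO. Nrf1 (17.8, 25.2, 22.0 and 24.7 CPM), Gabpa (55.9, 66.3, 55.8 and 76.7 CPM), Tfam (29.0, 35.5, 29.5 and 34.0 CPM) and Myc (314, 329, 222 and 201 CPM) were not called.

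Several technical measures moved with these epithelial values. Median depth was 5546 UMIs a cell in cHet control, 4158 in cHet PD, 5211.5 in cKO control and 2818.5 in cKO PD. Cells with junctional-epithelium markers numbered 29, 685, 85 and 620, and the 4 junctional markers summed to 633, 5224, 1396 and 11948 CPM over the gate. Neutrophil markers, all 8 detected in each library, summed to 74.2, 1563, 106 and 1715 CPM in the epithelial gate. An immediate-early list, sensitive to tissue digestion, had 4 members higher and 0 lower of 16 in cHet (ratio 1.28) and 7 and 0 in cKO (1.52). The members' changes also followed transcript base composition: Pearson's r with GC content was -0.54 in cHet (80 members) and -0.55 in cKO (79 members), beside -0.16 and -0.20 over all genes. The median GC content was 55.5% for members called lower and 49.1% for those called higher in cHet, and 56.7% and 49.1% in cKO. It was 52.4% for complex I members and 50.9% for complex V members. After each change was centred on genes of like GC content and length, 11 members were higher and 22 lower in cHet and 8 and 13 in cKO. The share of all genes called after this centring is not given here, so these counts do not settle the part of GC content. The part of these measures in the result was otherwise not tested.

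Ndufa4 and its relative Ndufa4l2 went opposite ways in the PD epithelium. Ndufa4 (chr6:11900292-11907497, minus strand), a subunit of complex IV, stood at 268 CPM in cHet control, 605 in cHet PD, 274 in cKO control and 398 in cKO PD. Ndufa4l2 (chr10:127514967-127517154, plus strand) stood at 128, 44.8, 105 and 55.2 CPM in the same order. Ndufa4l2 thus made up 32.4%, 6.90%, 27.6% and 12.2% of the pair's UMIs. The lower share was seen in both layers: it was 23.9%, 4.78%, 20.4% and 4.56% in basal cells and 37.0%, 8.91%, 33.2% and 19.3% in suprabasal cells. Suprabasal cells held more Ndufa4l2 than basal cells in each library, at 184 against 65.8 CPM in cHet control and 91.2 against 17.4 CPM in cKO PD. Hif1a, listed above, was higher in the libraries in which Ndufa4l2 was lower.

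Outside the epithelium the pair's course varied with the cell type. The epithelial gate held 90.9% to 97.9% of the Ndufa4l2 UMIs of a library and 61.0% to 90.1% of its cells. Mural cells, in which Ndufa4l2 is a known marker, had it at 60%, 31.9%, 28.6% and 16.9% of the pair, on 15, 15, 28 and 12 UMIs. In endothelial cells Ndufa4 was 199 CPM in cHet control and 152 in cHet PD, and 204 and 174 CPM in cKO, log2 changes of -0.36 and -0.22 beside 1.15 and 0.52 in epithelium. In fibroblasts its log2 changes were 0.43 and -0.15. The cHet fibroblasts and cHet mural cells had the epithelial order, with Ndufa4 at 129 and 178 CPM and at 67.1 and 153 CPM in control and PD, and Ndufa4l2 at 23.8 and 6.17 CPM and at 101 and 71.5 CPM. In junctional-state cells Ndufa4 was 661 and 803 CPM in cHet, on 29 and 685 cells, and 627 and 504 CPM in cKO. Whether these changes differ between cell types could not be tested with 1 library a group.

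**Figure D4:**
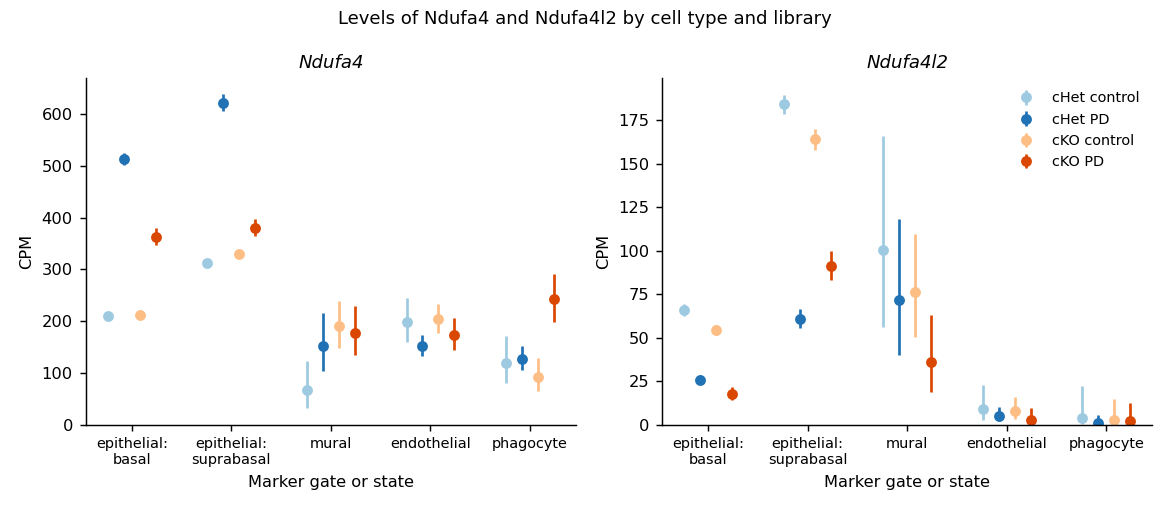
Levels of Ndufa4 (left) and Ndufa4l2 (right) in CPM by gate or epithelial state (horizontal axis) and library (colours), with 95% counting intervals. In both epithelial states the PD libraries lie above their controls for Ndufa4 and below them for Ndufa4l2.

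Some other isoforms made up more of their set's UMIs in mural or glandular cells than in epithelium. They were not confined to these cells: mural cells held 20.5% to 42.9% of a library's Cox4i2 UMIs. Cox4i2, the isoform known from lung and vessels, gave 26.7%, 15.9%, 9.92% and 25.4% of the Cox4i UMIs of mural cells, on 8, 7, 12 and 15 UMIs, and at most 0.0541% in epithelium. Cox7a1, the isoform of heart and skeletal muscle, gave 9.43%, 5.64% and 3.99% of the Cox7a1 and Cox7a2 UMIs in the glandular gate of cHet control, cKO control and cKO PD, against 0.0293% to 0.279% in epithelium. Cox6b2, known from testis, gave 0.257% to 0.454% of the Cox6b UMIs in epithelium, and in the glandular gate 0.538% in cHet control, 2.81% in cKO control and none in cKO PD, on 2, 24 and 0 UMIs. Cox8b had 0 to 3 UMIs in the epithelial gate of a library. Cox7a2l, which helps join complexes III and IV into supercomplexes, stood at 307, 144, 327 and 235 CPM in epithelium, and Cox7a2 at 220, 239, 218 and 215 CPM. Its share of the pair was 58.3%, 37.5%, 60.0% and 52.2% in epithelium, and 67.0%, 57.5%, 69.1% and 62.1% in endothelial cells. Cox7a2l was called lower in cHet only, which is no test of a difference between genotypes. At the UMI threshold, the members nearest inside were a second Atp5o row (98 UMIs), Cox8b (130), Cox5b-ps (136) and Cox4i2 (138), and just outside lay Cox7b2 (21), Cox6a2 (20) and Cox8c (4). Reads shared between Cox5b and its near copy Cox5b-ps, between the Atp5o rows or between the Atp5g genes may have been split in counting, so their values are uncertain.

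Endothelial cells and fibroblasts of the same libraries had lower complex I sums in PD too. The endothelial complex I ratio was 0.669 (0.622 to 0.721) in cHet and 0.622 (0.581 to 0.667) in cKO, and the complex V ratio 1.17 and 1.01. For fibroblasts the complex I ratio was 0.72 (0.673 to 0.771) and 0.809 (0.738 to 0.887), and the complex V ratio 1.23 and 1.13. In endothelial cells 6 members were called higher and 12 lower of 59 in cHet, where 21.6% and 12.7% of all genes were, and 6 higher and 18 lower of 57 in cKO, where 18.2% and 17.8% were. In fibroblasts the counts were 9 and 10 of 53 (24.3% and 21.9% of all genes) and 4 and 10 of 38 (16.6% and 36.8%), so the fibroblast counts lay near or below the background. The whole sums had ratios of 0.912 and 0.86 in endothelial cells (a log2 ratio of -0.13 in cHet, which was 0.032 with TMM scaling) and 0.979 and 0.964 in fibroblasts.

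The genes at the ends of the range were often those of the epithelium, so the members' changes were not particular to it. Pearson's r of the members' PD-to-control log2 changes with those of epithelium was 0.84 in cHet and 0.92 in cKO endothelial cells. For fibroblasts it was 0.89 and 0.77. In cKO it was 0.93 in mural cells, 0.94 in the glandular gate and 0.79 in phagocytes. Over all genes these values ran from 0.48 to 0.65. Ndufa7 stood at 115 CPM in control and 21 in PD in cKO endothelial cells, at 187 and 15.0 CPM in cKO mural cells and at 205 and 28.0 CPM in the cKO glandular gate. Uqcr11 stood at 76.5 and 13.1 CPM, 176 and 15.0 CPM, and 204 and 18.2 CPM in the same gates. Cox5a was higher in PD in endothelial cells (100 and 200 CPM in cHet, 111 and 205 CPM in cKO) and in fibroblasts (73.9 and 164 CPM, 77.3 and 185 CPM). In the cKO glandular gate 6 members were called higher and 24 lower of 76 (22.5% and 14.9% of all genes). The glandular sum had a log2 ratio of -0.17, which was 0.24 with cells of at most 10% mt- UMIs, so its direction depends on that limit. In cKO mural cells 5 were higher and 14 lower of 38 (26.4% and 17.6%). These cell types come from the same libraries as the epithelium and are not independent of it.

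The second question was what the Itga9-Lyz2-cKO genotype changed. Among PD libraries the members were higher in cKO in myeloid cells and closer to level in the other gates with 40 cells on both sides. The cKO-to-cHet ratio of the sum was 1.65 (1.59 to 1.71) in phagocytes and 1.84 (1.75 to 1.93) in neutrophils, against 1.05 in epithelial cells, 1.05 in endothelial cells, 1.09 in fibroblasts and 1.14 in mural cells. Gates too small for the comparison were also higher in cKO PD: erythroid cells stood at 9053 CPM on 24 cells against 6306 on 47, and T and NK cells at 9222 on 20 against 7593 on 63. Cells in no gate stood at 10495 and 8562 CPM. In phagocytes 22 of 41 members considered were called higher and 0 lower, where 15.6% of all genes were called higher and 16.7% lower. In neutrophils 34 of 47 were called higher and 0 lower, where 34.1% and 19.2% of all genes were. The median log2 difference of the members considered was 0.62 in phagocytes and 0.81 in neutrophils, beside 0.03 and 0.30 for all genes considered. Over all members, with no filter on UMIs, these medians were 0.56 and 0.57. The members held 7644 UMIs in neutrophils of cKO PD and 2288 in those of cHet PD. Many could therefore be considered through cKO PD alone, which favours members higher there, so the neutrophil count may lean towards cKO PD.

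In phagocytes, complex V was higher at 4671 against 2706 CPM, a ratio of 1.73 (1.63 to 1.83), with 11 of 14 members called. Complexes I, III and IV had ratios of 1.7, 1.61 and 1.58, and complex II a ratio of 1.28 with none of 3 called. Ndufb11, a complex I subunit encoded on the X chromosome, stood at 131 CPM in cKO PD and 50.2 in cHet PD, a ratio of 2.61 (1.76 to 3.89) on 59 and 49 UMIs. Ndufb3, another complex I subunit, stood at 122 and 48.2 CPM. The stalk subunit Atp5o stood at 273 and 119 CPM, a ratio of 2.30 (1.77 to 2.99). Atp5g2 was 431 and 201 CPM and Uqcrfs1 249 and 117 CPM. Cox7a2l was called higher as well. Of complex II, Sdha stood at 147 and 112 CPM, Sdhc at 116 and 109 and Sdhd at 178 and 129 CPM, none called.

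Neutrophils of cKO PD were higher in complexes I, III, IV and V, with ratios of 2.0, 1.96, 1.8 and 1.84, and had a complex II ratio of 1.22. Ndufa6 stood at 49.6 CPM in cKO PD and 11.3 in cHet PD, a ratio of 4.40 (2.10 to 10.6) on 64 and 8 UMIs. Ndufb3 was 86.0 and 29.6 CPM, Atp5g2 134 and 47.9 CPM, Atp5g3 183 and 70.4 CPM and Atp5pb 259 and 101 CPM. Atp5md, at 91.4 and 106 CPM, was the only member considered with a negative log2 difference, while 8 of all members had one. Sdhd, at 140 and 114 CPM, and Sdha, at 74.3 and 47.9 CPM, were not called.

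**Figure D5:**
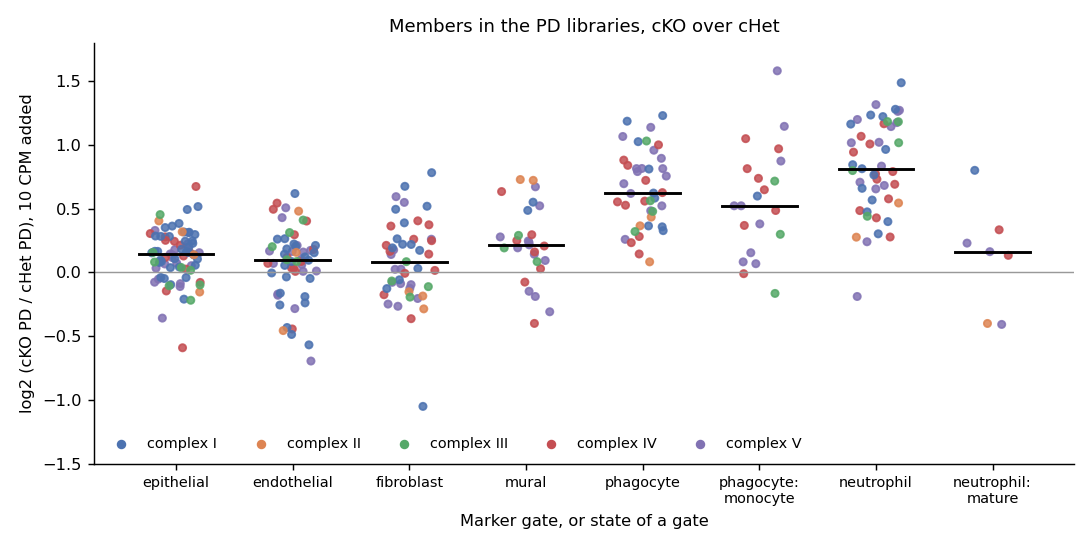
Log2 cKO-to-cHet difference between the PD libraries (10 CPM added) for each member considered (points, coloured by complex), by gate or state, with black bars at the medians. Phagocytes and neutrophils have medians of 0.62 and 0.81 against 0.14 in epithelium, and the median within mature neutrophils is 0.16.

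The myeloid cells of the 2 PD libraries were of different states. The ratio was smaller within the monocyte and the mature state, and the summed levels of the lipid-associated state lay further apart. Phagocytes of cHet PD were 98 lipid-associated, 60 monocyte-state and 23 resident cells, and those of cKO PD were 23, 71 and 6, with the rest in no single state. Neutrophils of cHet PD were 571 mature and 11 immature cells, and those of cKO PD 200 mature and 384 immature. Within the monocyte state the ratio of the sum was 1.39 (1.31 to 1.48), with 10 members called higher and 0 lower of 21, where 21.5% and 17% of all genes were called. Atp5o was 261 and 81 CPM and Atp5pb 419 and 184 CPM there. Lipid-associated cells stood at 14501 CPM in cKO PD on 23 cells and 6886 CPM in cHet PD on 98 cells. Their medians over single cells were closer, at 9045 and 6756 CPM, beside 9101 and 6646 CPM for all phagocytes. Of these lipid-associated cells, 4 were cycling in cKO PD and 0 in cHet PD. Mature neutrophils had a ratio of 1.33 (1.22 to 1.45), with 1 member called of 7, Ndufb1-ps, where 11.4% of all genes were called higher and 24.1% lower. Immature neutrophils of cKO PD stood at 6166 CPM and mature ones at 3613.

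Cycling, depth and other cells' markers differed too. In cKO PD 20 of 106 phagocytes and 97 of 730 neutrophils held cycling markers, and the sum in cycling neutrophils was 1.61 times (1.54 to 1.68) that of the rest, 8150 against 5068 CPM. Without cycling cells the cKO-to-cHet log2 ratio was 0.62 in phagocytes and 0.70 in neutrophils, beside 0.72 and 0.88 with them. With the lowest UMI total of the control libraries required in every library, 55 neutrophils of cHet PD were left, the log2 ratio of neutrophils was 0.34 and 5 of 43 members were called, below the 15.6% of all genes. With TMM scaling 10 of 41 members were called in phagocytes, with a log2 ratio of 0.41. The share of all genes called with TMM is not given here, so that count has no background beside it. In phagocytes the 8 neutrophil markers summed to 361 CPM in cHet PD, with Ngp and Retnlg at 0, and to 1524 CPM in cKO PD, with all 8 detected. The 4 neutrophil progenitor markers summed to 2.05 and 293 CPM, the 8 phagocyte markers to 13898 and 5729 CPM and the 8 epithelial markers to 448 and 358 CPM. In neutrophils the 8 epithelial markers summed to 1672 CPM in cHet PD and 1060 in cKO PD. The part of these measures in the result was not tested further.

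The same phagocytes differed in other lists, beside 15.6% of all genes called higher and 16.7% lower. Cytosolic ribosomal protein genes were 57 higher and 0 lower of 72 in cKO PD (ratio 1.85), so they exceeded the members' ratio of 1.65. Tricarboxylic acid cycle genes were 5 and 0 of 7 (1.78), mitochondrial housekeeping genes 7 and 0 of 18 (1.42) and mt-encoded genes 5 and 0 of 11 (1.4). Glycolysis genes were 1 higher and 3 lower of 15 (0.775) and immediate-early genes 0 and 7 of 15 (0.588). In neutrophils the ribosomal protein genes were 32 and 0 of 70 (1.46), the mt-encoded genes 1 and 0 of 11 (1.22), the glycolysis genes 5 and 3 of 16 (1.43) and the immediate-early genes 0 and 12 of 16 (0.431). There 34.1% of all genes were called higher and 19.2% lower, so the glycolysis counts lay near the background.

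PD against control could be set side by side in phagocytes of cKO, with 106 and 55 cells of different states. The control cells were 37 resident, 7 lipid-associated and 5 monocyte-state cells, and the PD cells 6, 23 and 71, so a change within a state and a change of states cannot be told apart here. The sum was 11611 against 6293 CPM, a ratio of 1.85 (1.76 to 1.94), with 30 members called higher and 2 lower of 39, where 32.3% and 23% of all genes were. Cox5a stood at 442 CPM in PD and 81.5 in control, a ratio of 5.43 (3.70 to 8.20), Uqcrfs1 at 249 and 55.2 CPM, Cox7b at 264 and 63.1 CPM, Ndufb1-ps at 489 and 145 CPM and Atp5pb at 413 and 126 CPM. The 2 members called lower were Cox7a2l, at 156 and 326 CPM, and Ndufa2, at 82.2 and 137 CPM. Complex ratios ran from 1.56 for complex I to 2.19 for complex II. The mt-encoded sum had a ratio of 0.765, and immediate-early genes were 0 higher and 15 lower of 16 (0.291). This comparison shares the cKO PD library with the one between genotypes. In cHet the control library had 35 phagocytes, too few for the comparison. With a lead of 1 marker in the gate, it had 48 beside 221 in PD, and the ratio was 0.959 (0.917 to 1.00), with 8 members higher and 7 lower of 46, where 24.7% and 17.7% of all genes were.

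In PD epithelium, 1 of 78 members was called higher in cKO and 1 lower, where 2.04% and 2.85% of all genes were. Cox7a2l stood at 235 CPM in cKO PD and 144 in cHet PD, a ratio of 1.64 (1.56 to 1.71), and Ndufa4 at 398 and 605 CPM, a ratio of 0.658 (0.638 to 0.678). The next members by size were not called: Ndufa2 (93.5 and 62.5 CPM) and Ndufa6 (87.3 and 59.2 CPM) on the higher side, and Atp5b (538 and 693 CPM) and Uqcrc1 (30.3 and 36.9 CPM) on the lower. Endothelial cells had Ndufb11 called higher (97.3 and 59.9 CPM) and Atp5b lower (209 and 345 CPM) of 59, where 3.47% and 8.96% of all genes were called. Fibroblasts had Ndufa2, Ndufb1-ps and Atp5k called higher and Ndufa10 lower of 47 (5.19% and 19.6% of all genes), and mural cells Sdhc, Sdha, Atp5h and Cox8a higher and none lower of 27 (18.9% and 9.63%).

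Between the control libraries the epithelial members were close to level. The epithelial ratio of cKO to cHet was 1.01, with 0 members called in either direction of 80, where 1.07% of all genes were called higher and 0.626% lower. The 3 largest differences each way, none called, were Sdhd (84.1 and 69.6 CPM in cKO and cHet), Ndufa2 (164 and 141) and Ndufc2 (127 and 109) on the higher side and Cox6a1 (203 and 293), Ndufa4l2 (105 and 128) and Ndufv3 (92.2 and 106) on the lower. Cox6a1 was also called lower in the glandular gate, at 252 and 457 CPM, the 1 call of 76 there (5.78% of all genes higher and 4.47% lower). Endothelial cells had a ratio of 1.11 with no call of 57 (4.2% and 3.9% of all genes). Fibroblasts had a ratio of 1.11 with Ndufc2 (105 and 61.4 CPM) and Ndufb11 (102 and 63.9 CPM) called higher of 45, where 11.4% of all genes were called higher and 17.4% lower. With a lead of 1 marker in the gate, phagocytes had a ratio of 0.861 (0.816 to 0.909) on 63 and 48 cells, with 0 members higher and 3 lower of 20 (10.9% and 8.34% of all genes). Mural cells then had a ratio of 1.22 (1.16 to 1.28) on 89 and 44 cells, with 5 higher and 0 lower of 43 (7.38% and 5.47%).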

How the data were processed

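Single-cell RNA libraries of mouse gingiva, 1 for each of 4 groups, were analysed from UMI count matrices deposited by the authors, one whole-number count per gene and cell barcode. Per the submitters' processing notes, fastp and STARsolo 2.7.10a were used with build mm10. The labels' protocols describe BD Rhapsody capture while a label names 10x Genomics, so the platform is uncertain. The members, gene lists and gates were chosen with earlier results of these data known.

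From the deposited counts, cells with at least 200 genes and at most 20% mt- UMIs were kept (6595 to 8967 per library), assigned to marker gates and summed per gate and library. No doublet caller was run, and doublets that pass the required lead of 2 markers were not removed. Gates were compared with 40 cells on both sides. CPM, exact Poisson and conditional binomial 95% intervals (counting error only) and calls by size were computed in Python 3.11.15 with numpy 2.4.6, scipy 1.17.1 and pandas 2.3.3. The calling was run on simulated counts that varied by counting error only. That run held no variation between cells, animals or libraries. TMM factors came from edgeR 4.0.16 in R 4.3.3, as an alternative. Transcript GC content came from the annotation of GRCm38, the same assembly as mm10. Named genes were the 3 with most UMIs per complex, up to 5 called members each way per comparison, the isoform pairs, the Sdh genes and those next to the UMI threshold. Other genes named were chosen after their values were seen. Alternatives changed the denominator, scaling, cell filters, depth, gate, weighting and call rule.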

Additional observations from a re-analysis of the deposited data

Results flagged for a closer look

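The 2 genotypes' PD-to-control changes of the epithelial sum had opposite signs, and the difference was not tested, since each group is 1 library. In the whole epithelial gate the log2 ratio was -0.04 in cHet and 0.01 in cKO, a difference (cKO minus cHet) of 0.056, with a 95% counting interval of 0.047 to 0.066. In basal cells the log2 ratios were -0.05 and 0.06, a difference of 0.11. In cycling epithelial cells they were -0.04 and 0.01, a difference of 0.046, and in the other epithelial cells -0.05 and 0.01, a difference of 0.064. In suprabasal cells both ratios were above 0 (0.04 and 0.06). The epithelial difference was -0.05 with TMM factors, so its sign depended on the scaling.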

How the results depend on the processing

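No paired analysis was possible because a group held a single library, and for the same reason no library could be left out. Of 318 values of the principal results under an alternative, 235 kept direction and size, 45 moved, 19 were weaker, 11 stronger and 8 reversed; of 700 for other results, 522 kept them and 10 reversed. For the values that changed, the cause was not tested, except that fewer UMIs remain to be considered in thinned cells. Centring on GC content and length, leaving out cycling cells and the single-state values were chosen after seeing the data. Counts of members below are given without the share of all genes called under the same setting.

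Several of the small epithelial sums changed sign. As log2 ratios, PD to control in cHet (-0.04) became -0.095 per nuclear UMI, -0.17 without mt- and ribosomal protein UMIs, 0.085 with TMM, -0.034 with no cap on the mt- share, -0.024 with a cap of 10%, -0.026 with the control libraries' lowest UMI total, 0.079 in cells thinned to 1000 UMIs, -0.021 as a mean over cells and -0.051 without cycling cells. In cKO (0.01) the same ratio became -0.049, -0.10, 0.039, 0.045, 0.036, 0.026 and 0.14 in the same order up to thinned cells, 0.0023 with a gate lead of 3 markers and 0.10 as a mean over cells. Between genotypes in PD (0.07) it became 0.097 without mt- and ribosomal protein UMIs, -0.060 with TMM and 0.14 as a mean over cells. Between genotypes in control (0.01) it became 0.030 per nuclear UMI, 0.024 without mt- and ribosomal protein UMIs, -0.013 with TMM, -0.0065 with no cap, 0.0079 in thinned cells, 0.024 and 0.0051 with gate leads of 3 and 1, and 0.0081 without cycling cells. The difference of the PD changes, cKO minus cHet (0.056), became 0.045 per nuclear UMI, 0.073 without mt- and ribosomal protein UMIs, -0.046 with TMM, 0.078 with no cap, 0.045 with a lead of 3 and 0.13 as a mean over cells.

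Counts of epithelial members moved mainly with the fold required. At the smaller fold tried, 17 were higher in cHet PD, 19 higher and 31 lower in cKO PD, 9 higher and 2 lower between genotypes in PD, and 1 lower between genotypes in control. Between genotypes in PD, 0 were lower without mt- and ribosomal protein UMIs or in thinned cells, 0 were higher with TMM, 2 were higher and 0 lower as a mean over cells, and 2 were higher with 1 CPM added.

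The myeloid differences kept their sign under the alternatives run, at smaller or larger sizes. PD to control in cKO phagocytes (0.88) became 0.58 in thinned cells with 0 members called either way of 1 considered, 0.67 as a mean over cells and 0.78 without cycling cells with 19 higher and 1 lower; 18 were higher and 1 lower with a gate lead of 3, 1 lower with a lead of 1, and 5 lower with no filter on UMIs. Between genotypes in PD, phagocytes (0.72) stood at 0.79 without mt- and ribosomal protein UMIs, 0.41 with TMM and 10 called higher, 0.55 in thinned cells with 0 called of 4 considered, 0.58 with a lead of 3, 0.56 as a mean over cells, 0.62 without cycling cells and 0.48 with 10 called in the monocyte state; 34 were called with no filter on UMIs. Neutrophils (0.88) stood at 0.79 with TMM, 0.34 with 5 called at the control libraries' lowest UMI total, 0.78 with 16 called in thinned cells, 0.78 and 0.77 with leads of 3 and 1, 0.75 as a mean over cells, 0.70 with 22 called without cycling cells and 0.41 with 1 called in the mature state; after centring on GC content and length, 19 were higher and 1 lower.

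Other reversals were those of the endothelial PD change in cHet with TMM (0.032), the median endothelial change in cKO in thinned cells (0.12), and the endothelial difference of PD changes in thinned cells (0.065) and as a mean over cells (0.0017). In the glandular gate, the cKO PD change turned to 0.24 with a cap of 10% (median 0.29) and its median to 0.082 in thinned cells, and the control difference between genotypes to 0.19 with no cap (median 0.19) and its median to 0.056 in thinned cells.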
